A study of Mus musculus with 21 samples.

Results

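Small nucleolar, Cajal body and 5S ribosomal RNA genes were measured on Affymetrix gene expression arrays of mouse left ventricle. The members are the probe sets assigned to 1 gene whose annotated symbol starts with Snord, Snora, Scarna, Rnu or n-R5s. In all, 62 probe sets carried such a symbol. Of these, 21 had a log2 expression value of 5 or more on at least 3 of the 21 arrays and were taken as members, among 12463 single-gene probe sets that reached the same level and 34760 probe sets in the file. The members were thus chosen by their measured log2 level, which is given below as a description with no test. The 21 members were 11 of 31 box C/D RNAs (Snord), 7 of 22 box H/ACA RNAs (Snora), 2 of 3 Cajal body RNAs (Scarna), the 1 5S ribosomal RNA probe set (n-R5s136) and 0 of 5 Rnu probe sets.

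The arrays compared mice carrying the Tg(αMHC-MerCreMer) transgene with wild-type mice, all aged 9 to 13 weeks. In MerCreMer mice the α-myosin heavy chain promoter, which is active in cardiomyocytes, drives a Cre recombinase flanked by mutated oestrogen receptor ligand-binding domains. The labels name no floxed target. MerCreMer mice received intraperitoneal tamoxifen (40 mg/kg) on 4 consecutive days (MCM 4TAM), the matching control injections (MCM 4ctrl), tamoxifen on 1 day (MCM 1TAM) or 1 control injection (MCM 1ctrl). Wild-type mice received tamoxifen on 4 days (WT 4TAM) or the matching control injections (WT 4ctrl). Mice were killed 4 days after their final injection and the left ventricle was frozen. Each group held 3 arrays, 1 labelled male and 2 female, except WT 4ctrl, which held 6 arrays, 3 labelled with each sex. No wild-type mice with a single injection were measured here, so both genotype comparisons rest on the 4-injection groups. The strain is not given in the sources used here, so transgene, strain background and any array batch that followed genotype cannot be told apart.

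Small nucleolar RNAs are short, stable RNAs that pair with other RNAs and guide their chemical modification in the nucleolus. Box C/D RNAs, bound by fibrillarin, guide methylation of ribose, and box H/ACA RNAs, bound by dyskerin, guide pseudouridine formation. A few members of both families are instead needed for cleavage of the ribosomal RNA precursor. Cajal body RNAs guide the same modifications on the small nuclear RNAs of the spliceosome. In mammals most of these guides lie in introns of host genes, many of which encode ribosomal proteins, and they are trimmed out of the excised intron. The 5S ribosomal RNA is a part of the large ribosomal subunit and is transcribed by RNA polymerase III from many near-identical copies. A 5S probe set therefore cannot separate n-R5s136 from other copies.

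In the RefSeq table (GRCm38.p6) the members span 62 to 275 bases. A RefSeq gene spans 20 of the 21 members, and n-R5s136 has none. These 20 host genes are 10 protein-coding and 10 long noncoding genes. The host starts of the members with the largest genotype differences are shown because an intronic guide is made from its host's transcript. Many mammalian snoRNA host and ribosomal protein genes start transcription in a pyrimidine run. Each window runs from 30 bases before to 20 bases from the annotated start, on the gene's strand, and capitals mark the motif CTTTC.
Rpl13a, host of Snord33, chr7:45128726-45128775, minus strand: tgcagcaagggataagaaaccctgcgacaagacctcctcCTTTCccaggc
Rplp2, host of Snora52, chr7:141447621-141447670, plus strand: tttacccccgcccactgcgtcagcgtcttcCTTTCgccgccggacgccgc
Gas5, host of Snord47, chr1:161035136-161035185, plus strand: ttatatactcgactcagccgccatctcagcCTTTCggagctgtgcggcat
2410006H16Rik, host of Snord49b, chr11:62602847-62602896, plus strand: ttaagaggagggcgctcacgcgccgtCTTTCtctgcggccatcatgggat
Rps3, host of Snord15a and Snord15b, chr7:99483690-99483739, minus strand: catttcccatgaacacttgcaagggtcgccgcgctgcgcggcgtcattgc
Nop56, host of Snord57, chr2:130274382-130274431, plus strand: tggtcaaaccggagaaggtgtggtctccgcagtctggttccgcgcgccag
Gm36220, host of Snord104, chr11:106500885-106500934, plus strand: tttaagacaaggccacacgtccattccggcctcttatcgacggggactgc
The motif was present in 6 of the 13 host genes with a window (46.15%), against 8.0% of 27025 genes with one. Its reverse complement was present in 0 of the 13 hosts and in 6.96% of all genes. These shares describe the letters in the windows and say nothing of a factor or of transcription. The window of Gas5 at its other annotated start held no match. The members' own sequences are not printed here.

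Before the members, 3 checks of the samples were made. All 10 cardiomyocyte markers reached the level used for the members, with a mean over the list of 11.59 to 12.21 on the 12 MerCreMer arrays and 12.20 to 12.25 on the 9 wild-type arrays. Esr1, which encodes the oestrogen receptor whose domains the transgene carries, read 7.20 to 7.75 on MerCreMer arrays and 5.47 to 6.80 on wild-type arrays. MCM 4TAM replicate 3 was labelled female but had an Xist value of 3.12, against 7.38 to 8.03 on the other 12 female arrays and 2.62 to 3.55 on the 8 male arrays. Its Y-linked Uty value was 2.54, within the 2.29 to 2.92 of the other female arrays and below the 6.45 to 7.13 of the male arrays. The MCM 4TAM results that follow include this array. Where leaving it out ended the call of a named probe set or moved its called value by over 1.5 times, that value is given beside it. Counts of calls over a list can change without this array too, and such changes are given for some lists. Residual variance over all probe sets tested was 0.105 in MCM 4TAM and 0.016 to 0.0242 in the other groups. Over the members it was 0.062 in MCM 4TAM, 0.059 in WT 4TAM and 0.104 to 0.165 in the other groups.

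About as many members passed the test for genotype as missed it, with and without tamoxifen, and those that passed were higher in MerCreMer ventricles. In MCM 4ctrl against WT 4ctrl, 10 of 21 members passed the test and all 10 were higher. The 10 include Snord33 and Snord47, which became members through MerCreMer arrays, and counts without such members are given below. Called means a Benjamini-Hochberg adjusted p under 0.05 in limma. Among all 12463 probe sets tested, 0.842% were called in this comparison, 0.698% higher and 0.144% lower. The median log2 change was 0.54 over the members and 0.03 over all probe sets tested. The count was 6 without MCM 4ctrl replicate 1 and 6 without MCM 4ctrl replicate 2. In MCM 4TAM against WT 4TAM, 11 of 21 members were called, all higher, with Snord33, Snord47 and Snord22 among them. There 28.2% of all probe sets were called, 17.5% higher and 10.6% lower, so the background of this comparison is far larger. The median log2 change was 0.39 for the members and 0.03 for all. The count was 9 without MCM 4TAM replicate 3, 7 without WT 4TAM replicate 2, 3 with each group weighted by its own variance and 1 with only these 6 arrays in the fit.

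**Figure D1:**
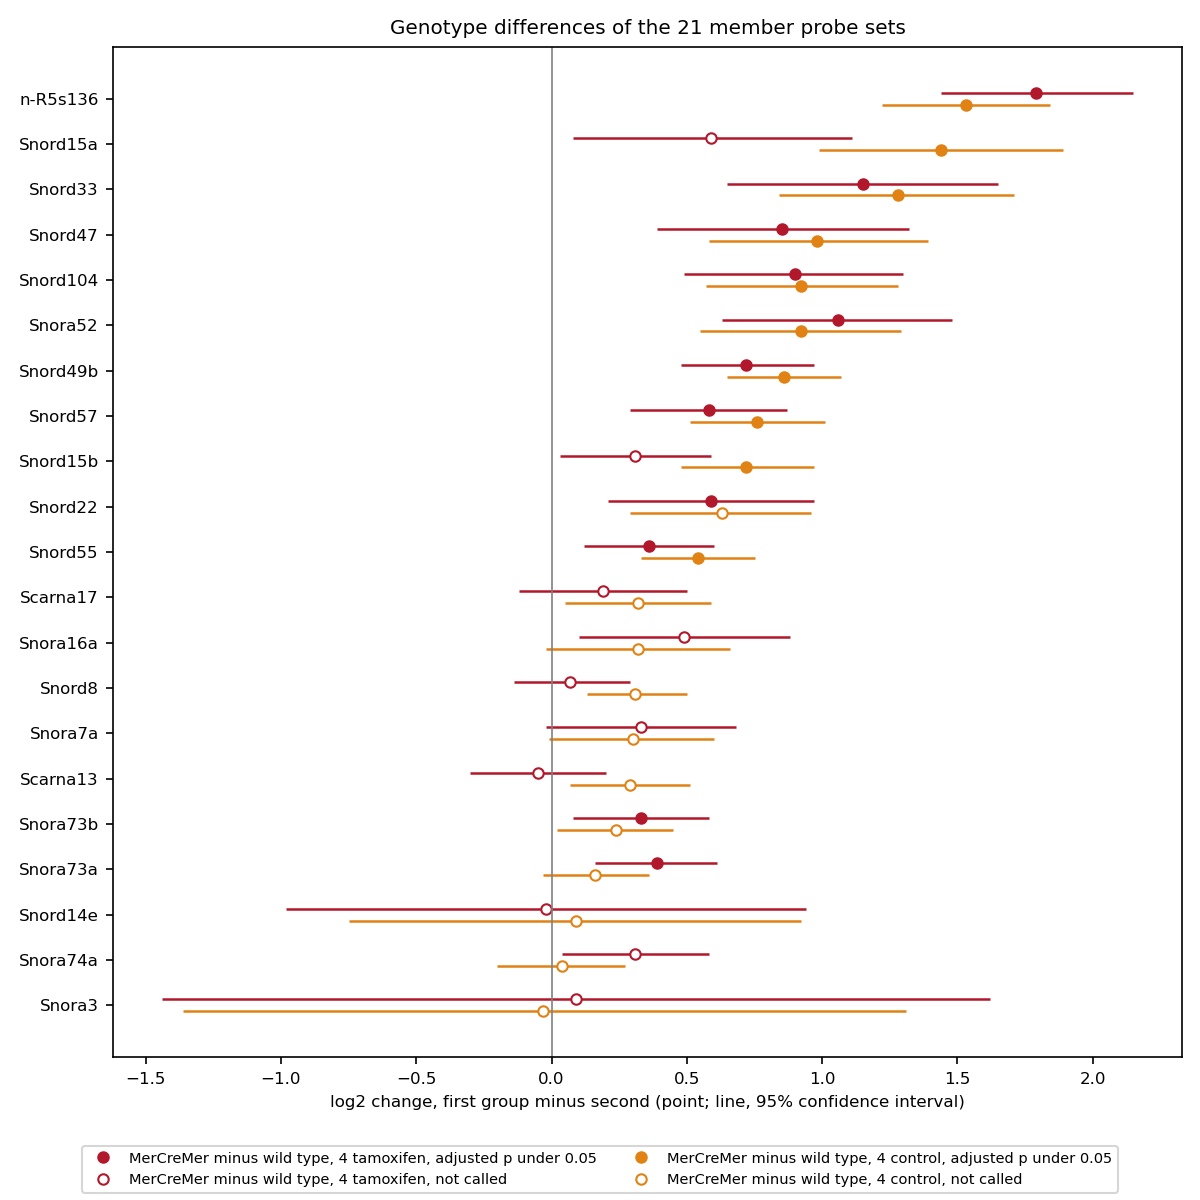
Log2 differences between MerCreMer and wild-type arrays (x axis) for the 21 members (y axis), after 4 tamoxifen (upper point) and 4 control (lower point) injections. Points are limma estimates, lines their 95% confidence intervals, and filled points passed an adjusted p of 0.05. n-R5s136 leads in both comparisons, at 1.79 and 1.53, while Snord14e and Snora3 have the widest intervals and lie near 0.

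A probe set that reached the level on fewer than 3 wild-type arrays needed MerCreMer arrays at the level to become a member. This holds for 5 members. Snord47 and Snora3 reached it on 3 MerCreMer and 0 wild-type arrays, Snord22 on 4 and 1, Snora16a on 10 and 2, and Snord33 on 11 and 2. Their differences are given below as a description. With the level asked of at least 3 wild-type arrays, a setting chosen after seeing the data, 16 members remained. Of these, 8 were called higher after tamoxifen, against 17.4% of 12131 probe sets, and 8 after control injections, against 0.709%. The median log2 changes over the 16 members were 0.35 after tamoxifen and 0.43 after control injections. Just inside the level were Snora3 and Snord47, each on 3 arrays, and Snord22 on 5 arrays, with means over all arrays of 4.30, 4.45 and 4.68. Just outside were Snora70 and Snord96a, each on 2 arrays, and Snord35b on 1, with means of 4.81, 4.63 and 4.51. The 41 named probe sets that missed the level showed the same direction in most cases, with a higher mean over MerCreMer arrays in 39 of 41. The corresponding count was 20 of 21 among the members and 7134 of 12463 among all probe sets tested. The median differences of the means were 0.17 for those that missed the level, 0.39 for the members and 0.02 for all.

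The 5S ribosomal RNA probe set n-R5s136 (10582580) had the largest genotype difference of the members. Its log2 values were 10.77, 10.78 and 11.16 in MCM 4TAM, 10.91, 11.05 and 11.01 in MCM 4ctrl, 10.62, 10.44 and 10.90 in MCM 1TAM, and 10.18, 10.73 and 10.65 in MCM 1ctrl. In WT 4TAM they were 9.36, 8.93 and 9.05, and in WT 4ctrl the lowest, median and highest were 9.14, 9.46 and 9.74. All 12 MerCreMer arrays lay above all 9 wild-type arrays. Between MCM 4ctrl (10.99 ± 0.07, SD, n = 3) and WT 4ctrl (9.46 ± 0.20, SD, n = 6) the log2 change was 1.53 (SE 0.147), a 2.89-fold difference, with a limma adjusted p of 2.93e-05. Between MCM 4TAM (10.90 ± 0.22) and WT 4TAM (9.11 ± 0.22, n = 3 each) it was 1.79 (SE 0.168, limma adjusted p 1.03e-06), or 3.46-fold. Without MCM 4TAM replicate 3 the change after tamoxifen was 1.65.

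Of the 11 box C/D members, 7 were called higher after tamoxifen and 8 after control injections, with class medians of 0.59 and 0.76. These counts include Snord33, Snord47 and, after tamoxifen, Snord22, which became members through MerCreMer arrays. The other 8 box C/D members had 4 calls after tamoxifen and 6 after control injections. The genotype separation was complete for Snord104, Snord49b and Snord57. Together with n-R5s136, these made 4 of 21 members with all 12 MerCreMer arrays above all 9 wild-type arrays, a pattern seen in 0.762% of all probe sets tested. The opposite pattern was seen in 0 members and 0.152% of all probe sets.

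Snord104 (10382104) read 7.17, 6.74 and 6.96 in MCM 4TAM, 6.62, 6.93 and 7.03 in MCM 4ctrl, 6.84, 6.73 and 6.98 in MCM 1TAM, and 6.58, 7.52 and 7.15 in MCM 1ctrl. The WT 4TAM values were 6.17, 6.24 and 5.76, and the WT 4ctrl arrays ran from 5.60 through a median of 5.94 to 6.15. Its lowest MerCreMer array, 6.58, stood above its highest wild-type array, 6.24. The genotype change was 0.90 (SE 0.193, limma adjusted p 0.0026) after tamoxifen and 0.92 (SE 0.169, limma adjusted p 0.0135) after control injections. The control call was lost without MCM 4ctrl replicate 2 or replicate 3 (limma adjusted p 0.086 and 0.0682).

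Snord49b (10376885), a box C/D guide in the noncoding host 2410006H16Rik shown above, read 6.14, 5.89 and 6.04 in MCM 4TAM, 6.14, 5.78 and 6.07 in MCM 4ctrl, 5.43, 5.64 and 5.74 in MCM 1TAM, and 5.78, 6.01 and 5.74 in MCM 1ctrl. WT 4TAM arrays read 5.28, 5.40 and 5.21, and WT 4ctrl arrays spanned 4.95 to 5.30 with a median of 5.13. The gap between the genotypes was narrow, since the lowest MerCreMer array read 5.43 and the highest wild-type array 5.40. The limma change was 0.72 (SE 0.117, adjusted p 0.000229) after tamoxifen and 0.86 (SE 0.102, adjusted p 0.000351) after control injections.

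Snord57 (10476106) lies in Nop56, which encodes a core protein of box C/D particles. It read 8.12, 8.43 and 8.10 in MCM 4TAM, 8.26, 8.24 and 8.57 in MCM 4ctrl, 8.15, 7.95 and 8.41 in MCM 1TAM, and 7.95, 8.22 and 8.25 in MCM 1ctrl. Against these, WT 4TAM arrays read 7.81, 7.49 and 7.61, and WT 4ctrl arrays spanned 7.44 to 7.78 with a median of 7.53. Every MerCreMer array was again above every wild-type array. The change was 0.58 (SE 0.137, limma adjusted p 0.00478) after tamoxifen and 0.76 (SE 0.119, limma adjusted p 0.00564) after control injections.

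**Figure D2:**
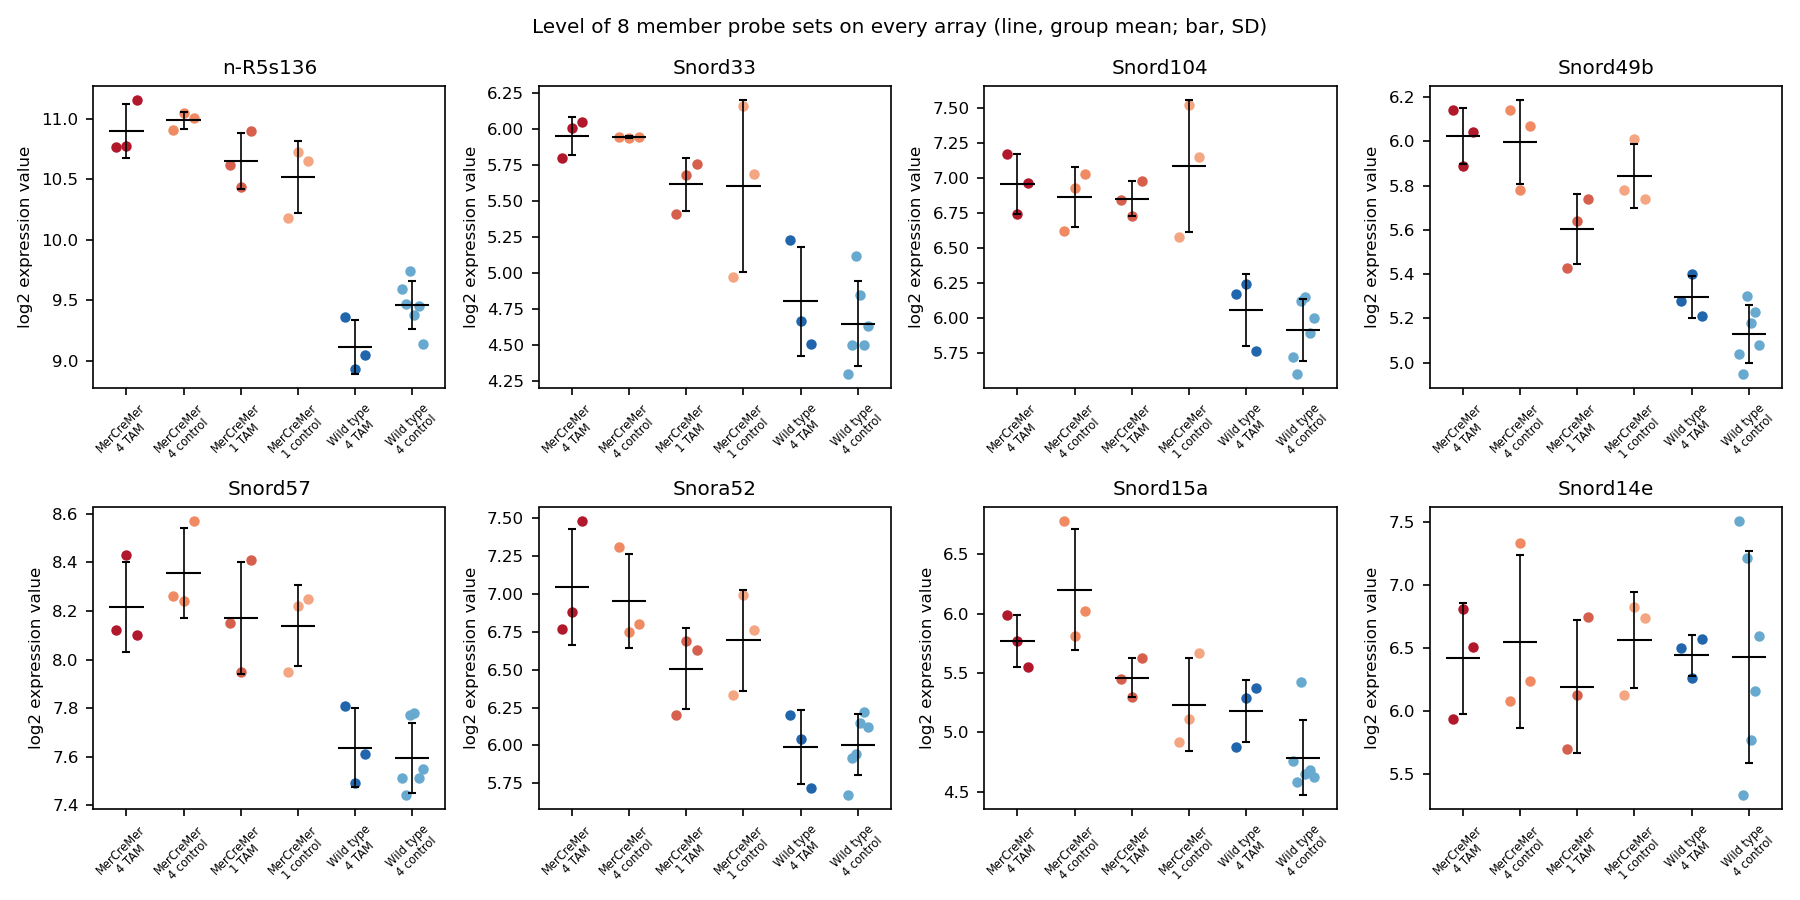
Log2 expression values (y axes, a separate range for each panel) of 8 members on every array, by group (x axes; TAM, tamoxifen; 1 or 4, number of injection days). Points are arrays, horizontal lines group means and bars SD. n-R5s136, Snord104, Snord49b and Snord57 show all MerCreMer arrays above all wild-type arrays, and Snord14e shows groups that overlap throughout.

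Snord33 (10563112) is 1 of several box C/D RNAs in the introns of the ribosomal protein gene Rpl13a, a group known from work on lipotoxic and oxidative stress. Its values were 5.80, 6.01 and 6.05 in MCM 4TAM, 5.95, 5.94 and 5.95 in MCM 4ctrl, 5.41, 5.68 and 5.76 in MCM 1TAM, and 4.97, 6.16 and 5.69 in MCM 1ctrl. WT 4TAM arrays read 5.23, 4.67 and 4.51, and WT 4ctrl arrays 4.30 to 5.12 with a median of 4.56. The exception to a full separation was MCM 1ctrl replicate 1, and 11 of 12 MerCreMer arrays were above the highest wild-type array. The difference was 1.15 (SE 0.239) after tamoxifen and 1.28 (SE 0.208) after control injections. Both passed the test, the second not without MCM 4ctrl replicate 1 or 2, and both are a description, since 2 wild-type arrays reached the level.

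Other Rpl13a guides gave values in the same direction. Snord35a missed the level, with MerCreMer arrays at 3.98 to 4.88 and wild-type arrays at 3.53 to 4.23. The probe set annotated to both Snord32a and Rpl13a, which was not tested because it names 2 genes, read 5.93 to 7.15 on MerCreMer arrays and 5.78 to 6.45 on wild-type arrays. The probe set annotated to Snord34 and Rpl13a read 4.05 to 4.85 on MerCreMer arrays and 3.84 to 4.30 on wild-type arrays. All 3 overlapped between the genotypes.

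Snord15a (10565813) and Snord15b (10565811) lie in the same ribosomal protein gene, Rps3, whose start window is shown above. Snord15a read 5.99, 5.77 and 5.55 in MCM 4TAM, 6.78, 5.81 and 6.02 in MCM 4ctrl, 5.45, 5.30 and 5.63 in MCM 1TAM, and 4.92, 5.11 and 5.67 in MCM 1ctrl. In WT 4TAM the values were 4.88, 5.29 and 5.37, and in WT 4ctrl they spanned 4.58 to 5.42 with a median of 4.67. The arrays of MCM 4ctrl stood above all others except some of MCM 4TAM, and the single-injection MerCreMer arrays overlapped with wild type. Its change was 0.59 (SE 0.245, limma adjusted p 0.0775) after tamoxifen, which was not called, and 1.44 (SE 0.213, limma adjusted p 0.00442) after control injections. Snord15b likewise differed by 0.31 (SE 0.133, limma adjusted p 0.0924) after tamoxifen, not called, and by 0.72 (SE 0.116, limma adjusted p 0.00651) after control injections. Without MCM 4TAM replicate 3 the value of Snord15b after tamoxifen was 0.42 and passed (limma adjusted p 0.034), and without MCM 4ctrl replicate 1 its control call was lost (limma adjusted p 0.0508).

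Snord47 (10351043), 1 of the many guides in the growth arrest gene Gas5, read 4.92, 5.13 and 4.69 in MCM 4TAM, 5.28, 5.03 and 4.69 in MCM 4ctrl, 4.42, 4.57 and 4.79 in MCM 1TAM, and 4.25, 4.89 and 4.56 in MCM 1ctrl. It read 4.40, 3.86 and 3.91 in WT 4TAM and 3.49 to 4.46 in WT 4ctrl, with a median of 3.98. Both 4-injection pairs were separated, and single-injection MerCreMer arrays reached into the wild-type range. The difference was 0.85 (SE 0.222) after tamoxifen and 0.98 (SE 0.193) after control injections. Both passed the test, the second not without MCM 4ctrl replicate 1 or 2 or WT 4ctrl replicate 5, and both are a description, since no wild-type array reached the level.

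Snord55 (10515429) read 6.30, 6.31 and 6.39 in MCM 4TAM, 6.49, 6.76 and 6.81 in MCM 4ctrl, 6.52, 6.51 and 6.56 in MCM 1TAM, and 6.11, 6.59 and 6.75 in MCM 1ctrl. WT 4TAM arrays read 6.04, 6.01 and 5.86, and WT 4ctrl arrays 6.0 to 6.25 with a median of 6.14. It was called in both genotype comparisons, with changes of 0.36 (SE 0.115, limma adjusted p 0.0258) after tamoxifen and 0.54 (SE 0.1, limma adjusted p 0.0142) after control injections. MCM 1ctrl replicate 1 was again the array of 12 that lay inside the wild-type range. The call after tamoxifen was lost without MCM 4TAM replicate 1 or 3 or WT 4TAM replicate 2 or 3 (limma adjusted p 0.056 to 0.127), and the control call without MCM 4ctrl replicate 2 or 3 (limma adjusted p 0.0979 and 0.0744).

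The remaining box C/D members were Snord22, Snord8 and Snord14e. Snord22, known from frog oocytes to be needed for ribosomal RNA processing, differed by 0.59 after tamoxifen, which passed the test, and by 0.63 after control injections, which did not. Both are a description, since 1 wild-type array reached the level, and the call was lost without MCM 4TAM replicate 2 or WT 4TAM replicate 2 or 3. Snord8 differed by 0.07 and 0.31 in these comparisons and was called in neither, and its first value was 0.21 without MCM 4TAM replicate 3. Snord14e, whose family is known from yeast to be needed for ribosomal RNA processing, spread from 5.70 to 7.34 on MerCreMer arrays and from 5.33 to 7.51 on wild-type arrays. Its change after control injections was 0.09, with a 95% confidence interval from -0.75 to 0.92 that leaves either direction possible.

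Among the 7 box H/ACA members, 3 were called higher after tamoxifen and 1 after control injections, with class medians of 0.33 and 0.24. The class includes Snora16a and Snora3, which became members through MerCreMer arrays and were called in neither comparison, so these medians are a description. The difference between the box C/D and box H/ACA classes was not tested. Snora52 (10558919), which lies in the ribosomal protein gene Rplp2, was the H/ACA member called in both. It read 6.77, 6.88 and 7.48 in MCM 4TAM, 7.31, 6.75 and 6.80 in MCM 4ctrl, 6.20, 6.69 and 6.63 in MCM 1TAM, and 6.33, 6.99 and 6.76 in MCM 1ctrl. In WT 4TAM it read 6.20, 6.04 and 5.72, and in WT 4ctrl it ran from 5.67 to 6.22 with a median of 6.03. MCM 1TAM replicate 1, at 6.20, was the array that reached the wild-type range. The change was 1.06 (SE 0.201, limma adjusted p 0.00101) after tamoxifen and 0.92 (SE 0.175, limma adjusted p 0.0167) after control injections. Without MCM 4TAM replicate 3 the change after tamoxifen was 0.86 and still called. Without MCM 4ctrl replicate 1 the control change was 0.63 and not called (limma adjusted p 0.117).

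Snora73a and Snora73b, both in the noncoding host Snhg3, belong to an H/ACA family whose yeast counterpart is needed for cleavage of the ribosomal RNA precursor. They were called after tamoxifen, at 0.39 (limma adjusted p 0.0138) and 0.33 (limma adjusted p 0.0445), and not after control injections, at 0.16 and 0.24. Both calls were lost without MCM 4TAM replicate 3, at 0.28 and 0.26 (limma adjusted p 0.0676 and 0.145), without WT 4TAM replicate 2 (limma adjusted p 0.0748 and 0.0631), and that of Snora73b without any 1 of 3 further arrays, MCM 4TAM replicate 1 and WT 4TAM replicates 1 and 3. That these changes differed between the injections was tested as an interaction and did not pass, with limma adjusted p values of 0.354 and 0.746. Snora16a differed by 0.49 and 0.32, Snora7a by 0.33 and 0.30, and Snora74a by 0.31 and 0.04, with the value after tamoxifen first, and none was called. Those of Snora16a are a description, since 2 wild-type arrays reached the level. Snora3 was the most variable member, with MerCreMer arrays from 1.85 to 5.60 and wild-type arrays from 3.15 to 4.96.

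The 2 Cajal body members were called in neither genotype comparison. Scarna17 differed by 0.19 after tamoxifen and by 0.32 after control injections (limma adjusted p 0.342 and 0.233). Scarna13 differed by -0.05 after tamoxifen and by 0.29 after control injections (limma adjusted p 0.761 and 0.175).

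Both genotype comparisons together called 8 of 21 members, against 55 of 12463 probe sets tested. The 8 were n-R5s136, Snord33, Snora52, Snord104, Snord47, Snord49b, Snord57 and Snord55. Without Snord33 and Snord47, as under the wild-type level, 6 of 16 members remained, against 43 of 12131 probe sets. These comparisons share no arrays, but both come from 1 fit with a shared spread and sex term. With only the arrays compared in the fit, MCM 4TAM against WT 4TAM called n-R5s136 alone. Before any test, 13 members in MCM 4TAM and 15 in MCM 4ctrl had all arrays above their wild-type counterparts, and this held for 20.9% and 8.87% of all probe sets. The reverse held for 0 members in either comparison, against 14% and 4.16% of all probe sets. The counts of 13 and 15 both include Snord33, Snord47 and Snord22, and the 13 also Snora16a. These became members through MerCreMer arrays, so for them the pattern is a description.

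Across arrays, the members were summarised as the median of their deviations from their own means. This median ran from -0.07 to 0.35 on the 12 MerCreMer arrays and from -0.38 to -0.17 on the 9 wild-type arrays. MCM 1ctrl replicate 1 had the lowest MerCreMer value and had 9 of 21 members above their own mean, as did MCM 1TAM replicate 1, while the other MerCreMer arrays had 15 to 19. The wild-type arrays had 1 to 5 of 21 members above their own mean. These medians and counts include Snord47, Snord22, Snora16a, Snora3 and Snord33, which became members through MerCreMer arrays, so they are a description. They are not given here for the other members alone or for all probe sets tested.

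**Figure D3:**
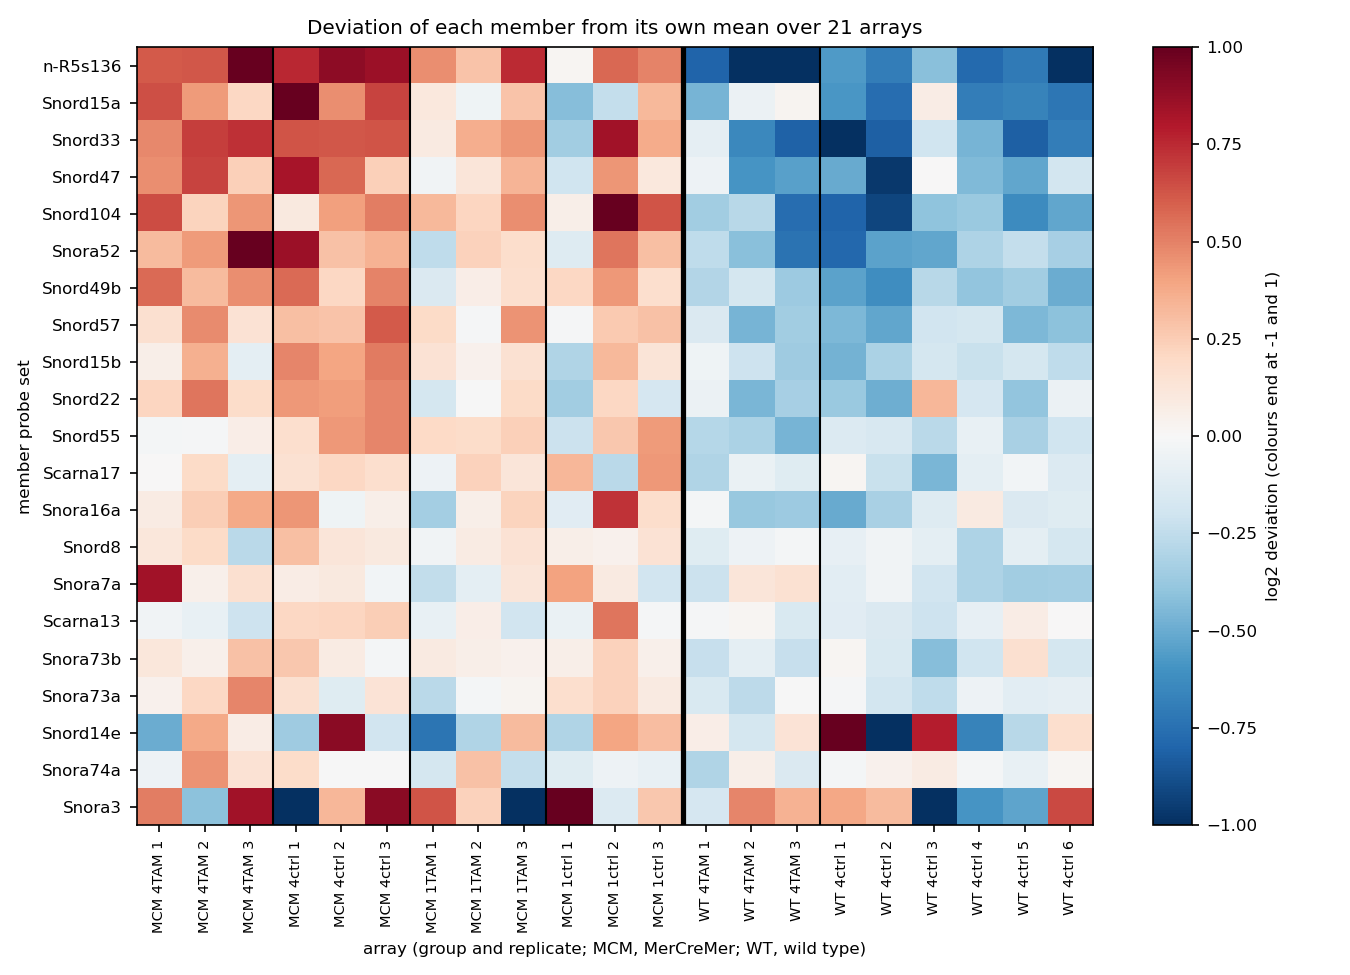
Deviation of each member (rows, ordered by its change in MCM 4ctrl against WT 4ctrl) from its own mean over 21 arrays, in log2 units (colour), for every array (columns). The thick line divides the 12 MerCreMer arrays on the left from the 9 wild-type arrays on the right. Rows at the top turn from positive to negative at that line, and Snord14e, Snora74a and Snora3 at the bottom do not.

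Few members passed the test for tamoxifen. In MCM 4TAM against MCM 4ctrl, 1 of 21 members was called, against 23.6% of all probe sets tested (13.5% higher and 10.1% lower). This was Snord55, lower by -0.35 on the log2 scale (SE 0.115, limma adjusted p 0.0329), with 3 of 3 tamoxifen arrays below the control arrays. The call was lost without MCM 4TAM replicate 3 (change -0.37, limma adjusted p 0.059) and over all the alternative settings its limma adjusted p ran from 0.0181 to 0.262. All MCM 4TAM arrays also lay below all MCM 4ctrl arrays for Scarna13 (5.96, 5.92 and 5.79 against 6.20, 6.21 and 6.24) and for Snord15b (7.36, 7.66 and 7.21 against 7.79, 7.70 and 7.82). Neither passed the test, with limma adjusted p values of 0.0531 and 0.0605, and without MCM 4TAM replicate 3 their changes were -0.26 and -0.24, against -0.33 and -0.36 with it. Such a pattern was seen in 11.9% of all probe sets. The median change was -0.14 for the box C/D members and 0.13 for the box H/ACA members.

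In MCM 1TAM against MCM 1ctrl, limma called 0 of 21 members, and 0.00802% of all probe sets. At an unadjusted p under 0.05 there was 1 member, Snora73a, at -0.25, which was also the 1 member with all tamoxifen arrays below all control arrays (3.44% of all probe sets). In WT 4TAM against WT 4ctrl, 0 members were called, with 0% of all probe sets, and the arrays of every member overlapped, where 2.13% of all probe sets had all WT 4TAM arrays above and 1.64% all below. Here too 1 member had an unadjusted p under 0.05, n-R5s136 at -0.35 with a 95% confidence interval from -0.66 to -0.04. The test of whether the tamoxifen effect differed between MerCreMer and wild-type mice called 0 of 21 members in limma, with 3 at an unadjusted p under 0.05. Among all probe sets 9.04% were called, 4.63% higher and 4.41% lower. Snord15a had the smallest p of this interaction, with a difference of -0.85 (SE 0.325, limma adjusted p 0.113). Without MCM 4ctrl replicate 1, its highest array, the difference was -0.54. Over all 6 groups, limma's F test called 12 of 21 members, against 25.1% of all probe sets, and 9 of the 16 that met the wild-type level.

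**Figure D4:**
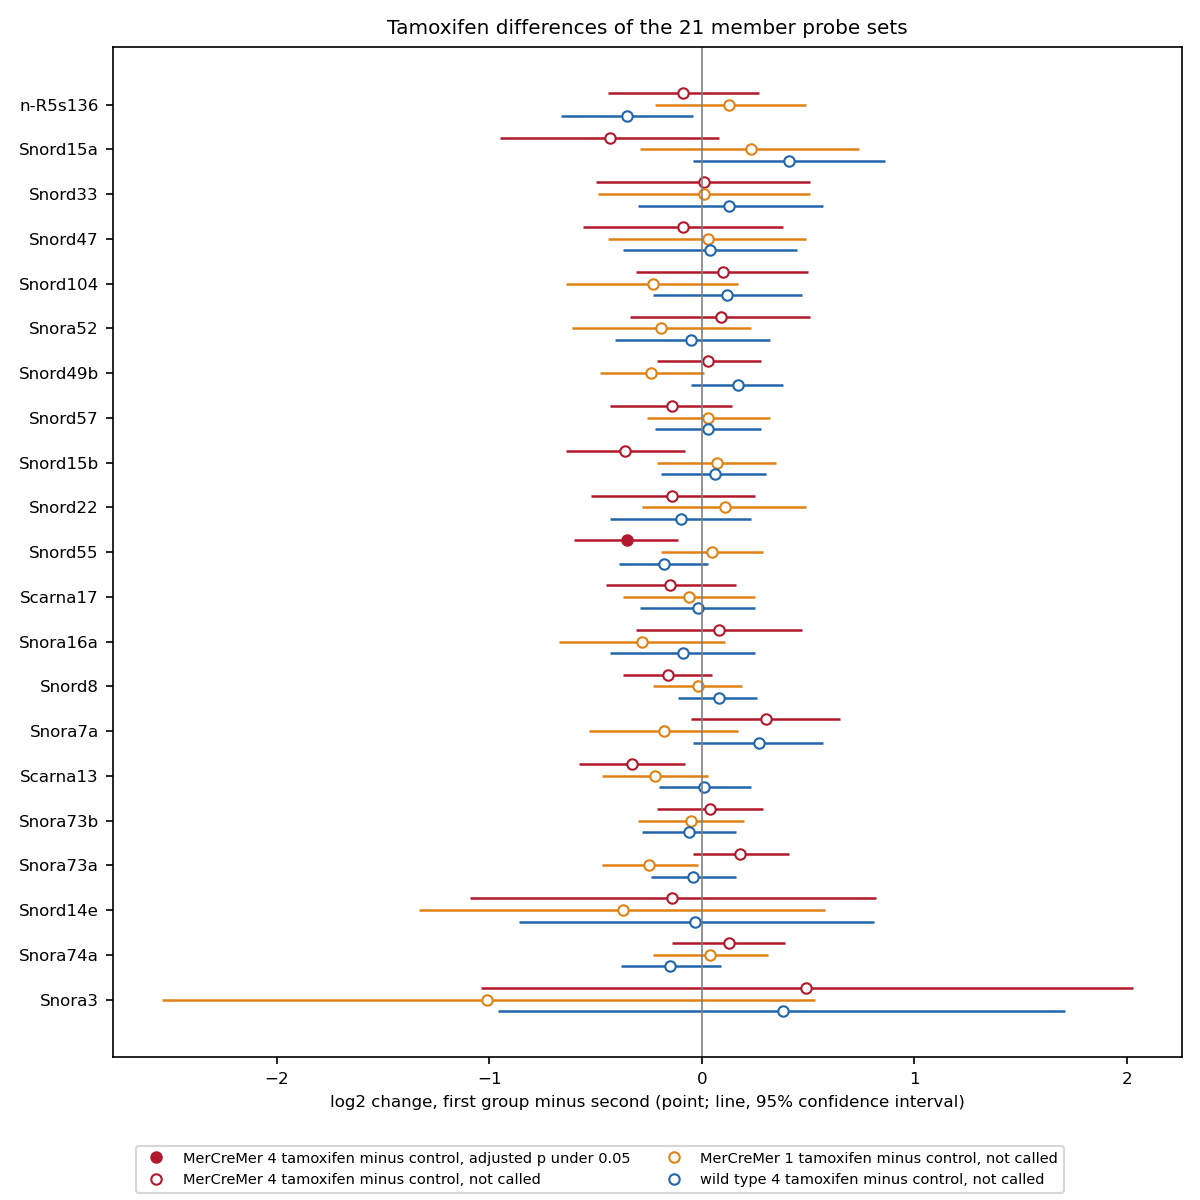
Log2 differences between tamoxifen and control injections (x axis) for the 21 members (y axis) in MerCreMer mice after 4 injections (upper point), MerCreMer mice after 1 injection (middle point) and wild-type mice after 4 injections (lower point). Points are limma estimates and lines 95% confidence intervals. The filled point, Snord55 at -0.35, is the 1 call at an adjusted p under 0.05.

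Cell type markers moved with tamoxifen in MerCreMer ventricles, beside the member results just given. In MCM 4TAM against MCM 4ctrl, 9 of 9 macrophage probe sets were called higher (median 1.06) and 3 of 10 cardiomyocyte probe sets lower (median -0.09). The atrial list had a median of -2.11, with Myl7 called at -3.77 (limma adjusted p 0.0207), and 2 of 6 endothelial probe sets, Erg and Cdh5, were called lower. Of 2 skeletal muscle probe sets 1, Tnnt3, was called higher at 1.84. Without MCM 4TAM replicate 3 the same 9 macrophage calls stood at a median of 0.72, and Cdh5 was not called. Between MCM 4TAM and WT 4TAM, 8 of 9 macrophage probe sets were called higher and 3 of 10 cardiomyocyte and 3 of 6 endothelial probe sets lower, the endothelial count being 0 without MCM 4TAM replicate 3, and the part of these cells in the member differences was not tested. In MCM 4ctrl against WT 4ctrl, where 10 members were called, 0 probe sets of the cardiomyocyte, macrophage, endothelial and fibroblast lists were called, with list medians of -0.06, -0.09, 0.08 and 0.11. The 3 atrial probe sets tested had a median of 2.59 in that comparison with 0 called. The mean of the atrial list ran from 5.89 to 8.40 on MerCreMer arrays and from 5.69 to 7.96 on wild-type arrays, and its part in the member differences was not tested. In these bulk samples, a change in the share of a cell type and a change of RNA per cell cannot be told apart.

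Host genes were measured by separate probe sets for 7 of the 20 hosts, and 4 of these hold guides called in the control comparison. Nop56, host of Snord57, differed by 0.01 (SE 0.104, limma adjusted p 0.969) in MCM 4ctrl against WT 4ctrl. Rps3, host of Snord15a and Snord15b, differed by -0.06 (SE 0.0834, limma adjusted p 0.799). Rplp2, host of Snora52, differed by 0.30 (SE 0.0877, limma adjusted p 0.102). Chd8, host of Snord8, differed by 0.02. Of the 7 Rpl27a probe sets 1 was called, at 0.71 (limma adjusted p 0.0193), and the other 6 ran from -0.13 to 0.46. The difference between guide and host was not tested.

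Gas5, host of Snord47, had 3 probe sets that disagreed. In MCM 4ctrl against WT 4ctrl, 1 was called at 0.68 (SE 0.114, limma adjusted p 0.00737), with all 12 MerCreMer arrays at 7.30 to 8.32 and all 9 wild-type arrays at 6.94 to 7.27. The other probe sets differed by 0.08 and -0.21. The RefSeq gene Gas5 holds other guides, and whether a probe set reads the spliced host or an intronic guide cannot be told from the files. After tamoxifen the hosts themselves were called higher in MCM 4TAM than in WT 4TAM for Nop56 (0.35), Rplp2 (0.34), Rps3 (0.26) and 2 of 3 Gas5 probe sets (1.57 and 0.90), in a comparison where 17.5% of all probe sets were called higher. So were Rpl27a probe sets at 0.80, 0.52 and 0.31, while the other Rpl27a probe sets, at 0.07 to 0.48, were not called. Snora3, the guide in Rpl27a, differed by 0.09 and was not called. Without MCM 4TAM replicate 3 the Gas5 calls stood, at 1.38 and 0.72, and those of Nop56 (0.16), Rplp2 (0.31) and Rps3 (0.14) were lost, with limma adjusted p values of 0.193, 0.0523 and 0.235. Of the Rpl27a calls, that at 0.80 then stood at 0.77 (limma adjusted p 0.0056) and the others were lost, at 0.33 and 0.19.

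Genes of the machinery that makes these RNAs gave few calls between the genotypes after control injections. Of 8 probe sets for box C/D core proteins, 4 for box H/ACA core proteins, 13 for assembly factors, 25 for RNA polymerase III and its factors and 6 for proteins that bind 5S RNA, limma called 0 in MCM 4ctrl against WT 4ctrl. Of 19 probe sets for RNA polymerase I and its factors, 1 was called, a Polr1d probe set at 0.40 (limma adjusted p 0.0264). Polr1d is a subunit shared by polymerases I and III, and its other probe set was not called. The lists of 36 Sm and LSm, 12 Integrator and 16 exosome and trimming probe sets had 0 calls. After tamoxifen the same genotype comparison, in which 17.5% of all probe sets were called higher and 10.6% lower, called 2 of 8 box C/D core probe sets higher, Nop58 at 0.63 and Nop56 at 0.35. Neither was called without MCM 4TAM replicate 3, at 0.26 and 0.16. It called 2 of 4 box H/ACA core probe sets higher, Nhp2 at 0.59 (0.26 without that array) and Nop10 at 0.36. Of the 25 RNA polymerase III probe sets, 2 were called higher and 1 lower, Maf1 at -0.40 (-0.25 without that array), a repressor of that polymerase. Among polymerase I probe sets 5 of 19 were called higher and 2 lower (4 and 2 without that array). Among assembly factors 2 of 13 were called higher and 1 lower (1 and 2 without that array). The Sm and LSm list had 6 of 36 called higher (4 of 36 without that array) and Integrator 4 of 12 (1 of 12 without that array). The 5S partners had 1 of 6 called higher and the exosome list 0 of 16.

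In MCM 4TAM against MCM 4ctrl, where 13.5% of all probe sets were called higher and 10.1% lower, a few of these genes passed. Rrn3, an initiation factor of RNA polymerase I, rose by 0.35 (limma adjusted p 0.00137) and Maf1 fell by 0.55 on the log2 scale (limma adjusted p 0.000973), and both were called without MCM 4TAM replicate 3, at 0.41 and -0.39. Nop58, at 0.64 (limma adjusted p 0.0296), and Nhp2, at 0.53 (limma adjusted p 0.0325), were not called without it, at 0.27 and 0.19 (limma adjusted p 0.134 and 0.0821). The counts were 1 of 8 box C/D core, 1 of 4 box H/ACA core, 3 higher and 2 lower of 19 polymerase I, and 2 higher and 1 lower of 25 polymerase III probe sets. Without MCM 4TAM replicate 3 the polymerase I list had 2 called higher and 2 lower, and both core lists had 0 calls.

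Total RNA was extracted with an RNeasy mini kit, per the labels, and the members are short, so other short RNAs were set beside them. The 61 microRNA probe sets that reached the level did not follow the members. Their values ran from 4.10 to 7.68, where array medians were 4.57 to 4.72, so many lay at low levels, as did some members. In MCM 4ctrl against WT 4ctrl, 0 were called higher and 1 lower, with a median of -0.23. In MCM 4TAM against WT 4TAM 1 was called higher and 21 lower, with a median of -0.27. Without MCM 4TAM replicate 3 the microRNA counts after tamoxifen were 1 higher and 16 lower. Those 61 probe sets make up most of the 66 that map to the shortest non-member genes by RefSeq span, of which 2 were called higher and 21 lower after tamoxifen, and 1 and 1 after control injections. Rmrp, the RNA of the ribonuclease that cleaves the ribosomal RNA precursor, was higher by 1.15 after tamoxifen (SE 0.206, limma adjusted p 0.000608; 0.82 without MCM 4TAM replicate 3) and by 0.87 after control injections (SE 0.18, limma adjusted p 0.0251). Rpph1, the RNA of ribonuclease P, was higher by 0.65 in both comparisons (limma adjusted p 0.00399 and 0.0206). Rprl1 and Rprl2, also annotated as ribonuclease P RNAs, differed by 0.31 and 0.16 after tamoxifen and by 0.23 and 0.20 after control injections. The telomerase RNA Terc differed by -0.15 and -0.11, and none of these values was called. Rmrp and Rpph1 each had all 12 MerCreMer arrays above all 9 wild-type arrays.

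The Y RNAs Rny1 and Rny3, also polymerase III products, differed by 0.78 and 0.66 after tamoxifen and by 1.10 and 0.71 after control injections, and none of these values passed the test (limma adjusted p 0.055 to 0.12). The 7SK RNA gene Rn7sk had 2 probe sets, which were called higher after tamoxifen (0.32 and 0.24) and differed by 0.10 and 0.05 after control injections without being called. Ribosomal protein genes, which host several of the guides, were called higher for 77 of 173 probe sets after tamoxifen and 8 of 173 after control injections, with 1 and 0 called lower. Over all probe sets 17.5% and 0.698% were called higher in these comparisons and 10.6% and 0.144% lower. Without MCM 4TAM replicate 3 the count after tamoxifen was 37 of 173, against 14.9% of all probe sets. The part of RNA length or extraction in the member differences was not tested.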

How the data were processed

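Total RNA of 21 left ventricles was hybridised to Affymetrix arrays. The deposited table holds log2 values, and the submitters' processing notes name RMA. RMA corrects background, quantile normalises arrays and summarises probes, so it can take out a shift common to all genes. Its version and any array batches are not given here by the labels. Array medians of 4.57 to 4.72 were nearly equal, and no further scaling was applied. The number of arrays limits precision.

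The platform table named 1 gene for 21640 probe sets, several for 1321 and none for 11799. Single-gene probe sets at a log2 value of 5 or more on at least 3 of 21 arrays were tested, 12463 in all. Probe sets of different genes were not compared in level.

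In limma 3.58.1 under R 4.3.3, lmFit and eBayes fitted 6 groups and sex over the 21 arrays, leaving 14 residual and 3.96 prior degrees of freedom. Benjamini-Hochberg adjustment covered every probe set tested. The fit was tested on simulated data. The labels do not state that replicates are separate animals, so p values measure the spread between these samples.

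Members, lists and tests were chosen with earlier results of these data known. Named members were all called ones, or the 8 with the largest change, the member with the smallest p where none was called, those at the highest and lowest levels, those beside the level threshold, and up to 3 genes of each list. Some further members are given so that all 21 are accounted for. Hosts are RefSeq GRCm38.p6 genes that span a member on either strand, because the table gives no strand for the members, and all 21 members matched it. The promoter sequences, of the same build, came from a separate source. Alternatives were no sex covariate, other scalings, filters and spreads, a replicate block, only the arrays compared, 1 probe set per gene, leaving out each array, and, chosen after seeing the data, a fit without MCM 4TAM and the level asked of 3 wild-type arrays.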

Additional observations from a re-analysis of the deposited data

Results flagged for a closer look

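Within the 6 WT 4ctrl arrays, Snord15a read 5.42 on replicate 3, far above the 4.58 to 4.76 of the other 5 arrays by Dixon's test. It was the 1 such array found among the members, and chance marks about 1 in 20 groups. Without that array, 11 members were called in MCM 4ctrl against WT 4ctrl, against 10 with it.

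The probe set annotated to Snord14d, Snord14c and Hspa8, which was left out because it names several genes, had a median of 9.01 on MerCreMer arrays and 7.85 on wild-type arrays. All 12 MerCreMer arrays, at 8.37 to 9.25, were above all 9 wild-type arrays, at 7.38 to 8.22. The 3 single-gene Hspa8 probe sets differed by -0.17, -0.07 and -0.04 in MCM 4ctrl against WT 4ctrl, with 0 called by limma.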

How the results depend on the processing

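The count of 10 members called in MCM 4ctrl against WT 4ctrl was 8 to 13 under the 10 settings other than the replicate block and leaving out single arrays, and all these calls were higher. The fit without MCM 4TAM, chosen after seeing the data, gave 12, and asking the level of at least 3 wild-type arrays, also chosen later, gave 8 of 16. With no filter on low values it was 13 of 62 named probe sets, with the same 10 and Snord82, Snord35a and Snord61. Leaving out 1 array gave 6 to 11. The 6 came without MCM 4ctrl replicate 1 and without MCM 4ctrl replicate 2, and n-R5s136, Snord49b, Snord57 and Snord15a were called in both. The replicate block called 2, n-R5s136 and Snord49b, and 4 of all probe sets against 105 without it. Same-numbered arrays were not treated as paired. Their deviations from group means correlated at -0.23 to 0.25, with 5 of 15 over 0.1. Sex was not removed from these deviations, and replicate 1 was labelled male in every group, so they cannot settle whether arrays were paired.

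In MCM 4TAM against WT 4TAM the 11 calls became 3 with own-variance weights and 1, n-R5s136, with only the arrays compared. They were 7 to 12 without 1 array, the 7 without WT 4TAM replicate 2, and 9 without MCM 4TAM replicate 3. In MCM 4TAM against MCM 4ctrl the 1 call became 2 after a second quantile normalisation, 3 after centring arrays, and 0 with own-variance weights, with only the arrays compared and with the replicate block. It was 0 to 2 without 1 array, with 0 without MCM 4ctrl replicate 2 or 3 or MCM 4TAM replicate 3 and 2 without MCM 4TAM replicate 1. With no filter the 1 call was a different probe set, Snord58b, at 0.43 and near the lowest levels on the arrays. The interaction gave 0 to 1 without 1 array, the 1 without MCM 4TAM replicate 2. The 6-group test gave 11 to 14 without 1 array and 10 to 18 under the other settings, against 12.

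Over all probe sets, MCM 4TAM against WT 4TAM had 3509 calls, 1584 with own-variance weights and 109 with only the arrays compared. MCM 4TAM against MCM 4ctrl had 2943, 1266 and 28 under these settings, and MCM 4ctrl against WT 4ctrl had 105, 761 and 460.

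The changes followed through the settings were the largest of the called members, or that with the smallest p where none was called. None of these reversed under any setting run. Some genotype changes that were not called did reverse when a single array was left out. That of Snora3 in MCM 4ctrl against WT 4ctrl went from -0.03 to 0.98 without MCM 4ctrl replicate 1. Snord14e, Snora74a and Scarna13 were also among the members with such a reversal. The cause of the lost calls was not tested, beyond the fewer arrays of some settings. Levels near the lower end of the arrays limit what can be seen for the 41 probe sets below the level.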

Other observations

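Spliceosomal small nuclear RNA probe sets that name several genes were not tested and did not share 1 direction. Of 3 probe sets for the U1 genes Rnu1b6, Rnu1b2 and Rnu1b1, 1 read 8.10 to 9.16 on MerCreMer arrays and 8.99 to 9.80 on wild-type arrays, another 6.12 to 6.66 and 6.37 to 7.04, and the last 5.33 to 5.87 and 5.14 to 5.87. The 3 probe sets annotated to Rdm1 and the U2 gene Rnu2-10 had MerCreMer medians of 6.99, 5.20 and 5.84 and wild-type medians of 6.69, 4.53 and 4.89. Of 29 probe sets that name a small nucleolar or nuclear RNA together with other genes, 12 reached the level, and the arrays of the genotypes were fully separated for 1 of the 29.

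The members also varied together within groups to different degrees. After group means were removed, the correlation with the median of the other members over 21 arrays was 0.82 for Snord33, 0.71 for Snora16a and 0.65 for Snord104, against -0.64 for Snora3, -0.45 for Scarna17 and -0.35 for Snora7a. These values describe arrays that share 1 normalisation.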
